A study of Homo sapiens with 6 samples.

Results

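NEAT1 and MALAT1 are a pair of abundant long noncoding RNAs of the cell nucleus, made from neighbouring genes on human chromosome 11. They were taken by gene symbol alone, with no measured value used, and they are 2 of the 39020 genes listed over the 6 libraries. Both were listed in every library. NEAT1 is the RNA scaffold of paraspeckles, nuclear bodies that assemble around its long isoform together with proteins such as NONO and SFPQ. MALAT1 gathers in nuclear speckles, which store splicing factors. The 3′ ends of MALAT1 and of the long NEAT1 isoform are cut by RNase P and protected by a triple helix in place of a poly(A) tail, whereas the short NEAT1 isoform is polyadenylated.

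The cells were U2OS, an established human osteosarcoma line. Individual-nucleotide resolution crosslinking and immunoprecipitation (iCLIP), which sequences the RNA crosslinked to a protein, was made from cells of genotype TIRR_FLAG, which carry a stably introduced FLAG-tagged TIRR. TIRR, encoded by NUDT16L1, is a partner of the DNA break repair factor 53BP1. There were 2 iCLIP libraries of untreated cells and 2 of cells given 5 Gy of X-rays with a recovery of 4 h. RNA-seq was made from cells of genotype WT, with 1 untreated library and 1 given 5 Gy and the same recovery; the labels name X-rays for all irradiated samples, whereas the RNA-seq design note says gamma. The labels do not say whether the replicates are separate cultures or whether the tagged cells are 1 clone, so p-values measure only how far these particular libraries differ, and that difference may be technical. Libraries of the empty-vector cells that the design text names were not analysed here, so the amount of each RNA recovered without TIRR was not measured.

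The iCLIP libraries held 400723 to 799709 counts on genes and the RNA-seq libraries 13015406 and 13023903. The shallowest library was the first irradiated iCLIP library. In RNA-seq, 7 of 11 osteoblast and mesenchymal markers had at least 20 counts in the untreated library, COL1A1, SPARC and VIM among them. So did 3 of 3 neural, 2 of 4 epithelial, 1 of 2 endothelial and 0 of 4 leukocyte markers, so this cut does not separate the cell types. SP7 and IBSP, which mark committed osteoblasts, were at 0, and COL1A2 and BGLAP had 6 and 3 counts. Most of the summed level below came from COL1A1, SPARC and VIM, with 2753, 1841 and 2789 counts per 1000000 in untreated cells. The summed level of the 11 markers was 7609 counts per 1000000 in untreated and 8160 in irradiated cells, against 6.38 and 6.91 for 4 epithelial, 4.69 and 5.37 for 2 endothelial, 22.7 and 27.0 for 3 neural and 0.922 and 0.998 for 4 leukocyte markers.

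NEAT1 was the most counted gene in all 4 iCLIP libraries and took a larger share after irradiation, while the share of MALAT1 differed little between the conditions. In iCLIP, NEAT1 held 21052 and 19748 counts without irradiation and 13598 and 22190 after it. As a share of gene counts this was 2.69% (95% Clopper-Pearson interval 2.66 to 2.73) and 2.47% (2.44 to 2.50) in untreated cells, and 3.39% (3.34 to 3.45) and 3.34% (3.29 to 3.38) in irradiated cells. Both irradiated libraries were above both untreated ones, and the groups did not overlap. In scaled counts such a separation held for 22.0% of the 9230 genes tested. The untreated replicates differed from each other by more than counting error, with a ratio of 1.09 (1.07 to 1.11), and the irradiated ones did not, with 1.02 (0.995 to 1.04). These intervals cover counting error only.

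In iCLIP, MALAT1 held 10933 and 11033 counts without irradiation and 5379 and 9086 after it. Its share was 1.40% and 1.38% in untreated and 1.34% and 1.37% in irradiated cells, a mean of 1.39% ± 0.0131 against 1.35% ± 0.0173 (SD, n = 2 each). The shares lay within a narrow band, the irradiated ones slightly below. By iCLIP counts it ranked 2 or 3 of all genes. Together both RNAs took 4.09% and 3.85% of the gene counts in untreated and 4.74% and 4.70% in irradiated cells.

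In RNA-seq both RNAs took far smaller shares than in iCLIP, although they were still among the more counted of the 29233 and 29789 genes listed. NEAT1 had 4309 counts in untreated and 3801 in irradiated cells, which was 0.0331% (0.0321 to 0.0341) and 0.0292% (0.0283 to 0.0301) of the gene counts, at ranks 357 and 463. MALAT1 had 2248 and 2392 counts, which was 0.0173% and 0.0184%, at ranks 1041 and 945. The NEAT1 share was thus lower, and the MALAT1 share slightly higher, in the irradiated RNA-seq library. In bulk samples such as these, fewer cells of a kind and less RNA per cell cannot be told apart.

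**Figure D1:**
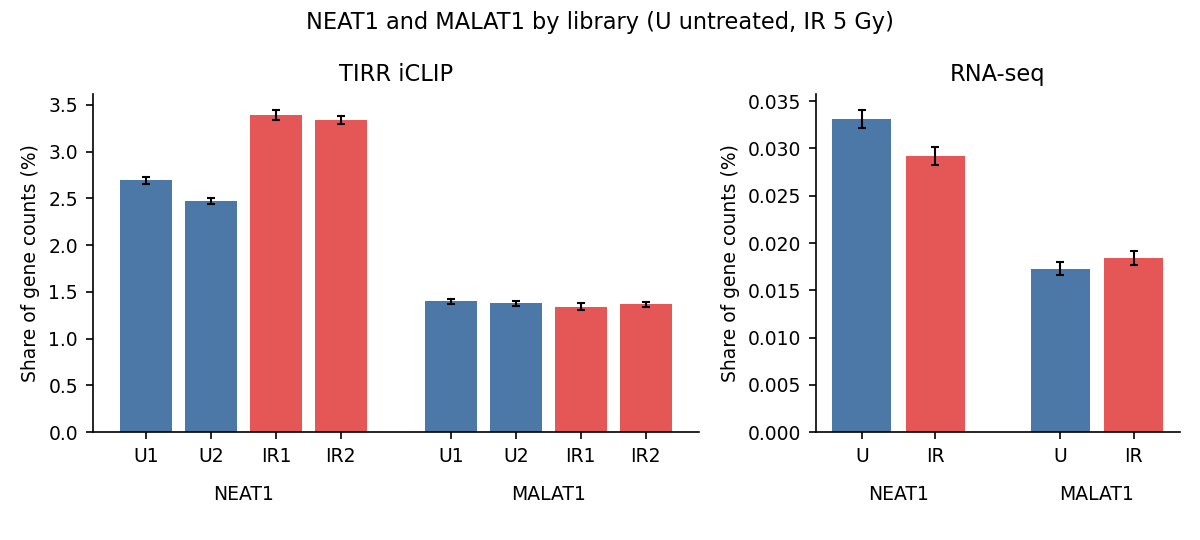
Share of gene counts (%) of NEAT1 and MALAT1 in each iCLIP library (left) and each RNA-seq library (right, on its own axis), with untreated libraries marked U and irradiated ones IR. Bars are single libraries and error bars are exact 95% intervals for counting error; NEAT1 lies at 2.47% to 2.69% in untreated and 3.34% to 3.39% in irradiated iCLIP libraries, and MALAT1 between 1.34% and 1.40% in all 4.

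Among the RNAs annotated as long noncoding in RefSeq, NEAT1 alone took 21.5% and 20.4% of the iCLIP counts in untreated and 26.4% and 25.2% in irradiated cells. MALAT1 took 11.2% and 11.4%, then 10.4% and 10.3%. In RNA-seq the same shares were 1.005% and 0.887% for NEAT1 and 0.524% and 0.558% for MALAT1. Both RNAs thus filled a far larger part of the long noncoding counts in iCLIP than in RNA-seq. Long noncoding RNAs as a class, both members included, took 12.1% to 13.2% of iCLIP gene counts and 3.30% and 3.29% of RNA-seq gene counts. The members alone took 3.85% to 4.74% of iCLIP gene counts and 0.0504% and 0.0476% of RNA-seq gene counts. The class with its members was thus also higher in iCLIP.

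The order of the genes changed when counts were divided by length. The table gives NEAT1 22283 bases in iCLIP and 22658 in RNA-seq, which covers the region of both isoforms, and MALAT1 8772 bases. Per kb of length and per 1000000 gene counts, the NEAT1 level in iCLIP was 1208 and 1108 before and 1523 and 1498 after irradiation. MALAT1 had 1594 and 1573, then 1530 and 1558. On this scale MALAT1 was above NEAT1 in untreated cells, by 1.32-fold (1.29 to 1.35) and 1.42-fold (1.39 to 1.45). In irradiated cells the levels nearly met, with ratios of 1.005 (0.973 to 1.04) and 1.04 (1.01 to 1.07), so the order of the pair was not separated from counting error in the first irradiated library. Among genes of at least 200 bases with at least 20 counts, NEAT1 was at rank 4 per kb in all 4 iCLIP libraries and MALAT1 at rank 2 or 3. The median gene had 1.05 to 1.22 on the same scale. In RNA-seq the per-kb levels were 14.6 and 12.9 for NEAT1 and 19.7 and 20.9 for MALAT1, with MALAT1 above NEAT1 by 1.35-fold (1.28 to 1.42) in untreated and 1.63-fold (1.54 to 1.71) in irradiated cells. The median gene had 0.875 and 0.869 there, and the per-kb ranks were 1088 and 1235 for NEAT1 and 791 and 744 for MALAT1, of 17227 and 17303 genes.

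The change after irradiation was tested over all genes with the edgeR quasi-likelihood test on TMM-scaled counts, where TMM is a scaling that sets the bulk of genes at no change. The scaled NEAT1 level was 26325 and 24090 counts per 1000000 (CPM) in untreated and 34975 and 33950 in irradiated libraries. NEAT1 rose by 1.37-fold (log2 fold change 0.45 ± 0.08 SE, 95% interval 0.28 to 0.62, edgeR adjusted p = 0.00271). Of 9230 genes tested, 224 rose (2.43%) and 323 were called in either direction (3.50%). NEAT1 had the smallest fold change of the 224 rises, whose median was 1.98-fold, and 13.98% of all genes tested had a higher log2 fold change. Its standard error of 0.08 compares with a median of 0.29 over all genes tested and of 0.12 over the 50 genes with the most untreated counts. In DESeq2 the log2 fold change was again 0.45 but the adjusted p was 0.0860, so the call is lost with that tool. It is also lost in edgeR with the replicate number as a block (0.45, adjusted p = 0.252), although the labels do not say what the numbers share.

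The scaled MALAT1 level was 13671 and 13459 CPM in untreated and 13835 and 13901 in irradiated libraries. Its log2 fold change was 0.03 ± 0.09 SE (95% interval -0.15 to 0.21, edgeR adjusted p = 0.919), and its sign was negative when counts were scaled by library totals (-0.04) or by upper quartiles, without a filter on low counts, or with a minimum of 20 counts. The interval excludes rises as large as the one fitted for NEAT1, 0.45. In CPM the irradiated pair of libraries exceeded the untreated pair for both RNAs, as it did for 22.0% of the genes tested. Separation of the groups alone is therefore common in this comparison.

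**Figure D2:**
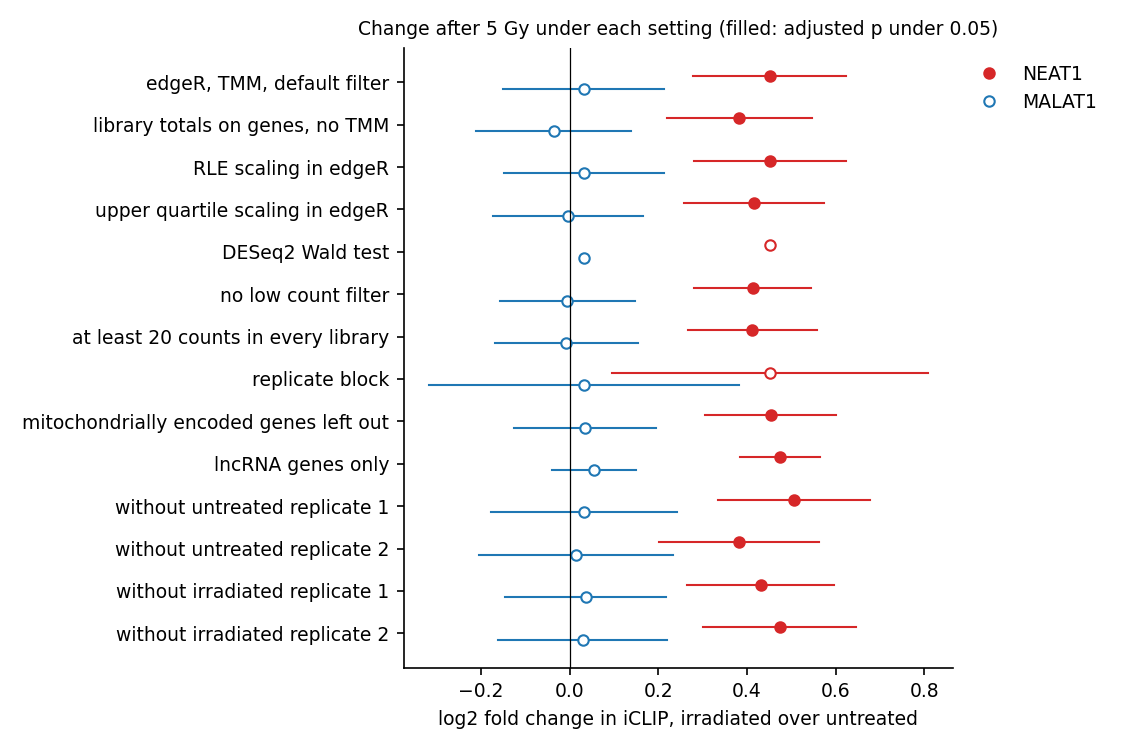
Log2 fold change in iCLIP, irradiated over untreated, for NEAT1 (red) and MALAT1 (blue) under each analysis setting, with 95% intervals where the fit gives one and filled points for an adjusted p under 0.05. NEAT1 stays between 0.38 and 0.51 and loses the call with DESeq2 and with the replicate block, and MALAT1 lies between -0.04 and 0.06 without a call.

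The ratio of NEAT1 to MALAT1 counts inside a library does not depend on the scaling. It was 1.93 (95% counting interval 1.88 to 1.97) and 1.79 (1.75 to 1.83) in the untreated iCLIP libraries. In the irradiated ones it was 2.53 (2.45 to 2.61) and 2.44 (2.38 to 2.50). The means were 1.86 ± 0.0959 and 2.49 ± 0.0606 (SD, n = 2 each), a 1.34-fold difference, and both irradiated ratios were above both untreated ones. In scaled counts 22.0% of single genes tested were separated in this way, and the share among ratios of other gene pairs was not measured. A two-sided exact permutation test gave p = 0.333, the smallest that 2 against 2 libraries allow. In RNA-seq the ratio went the other way, from 1.92 (1.82 to 2.02) to 1.59 (1.51 to 1.67), a factor of 0.829 (0.771 to 0.892). The untreated ratio was thus close to the same in both assays, and the irradiated ratios were apart.

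**Figure D3:**
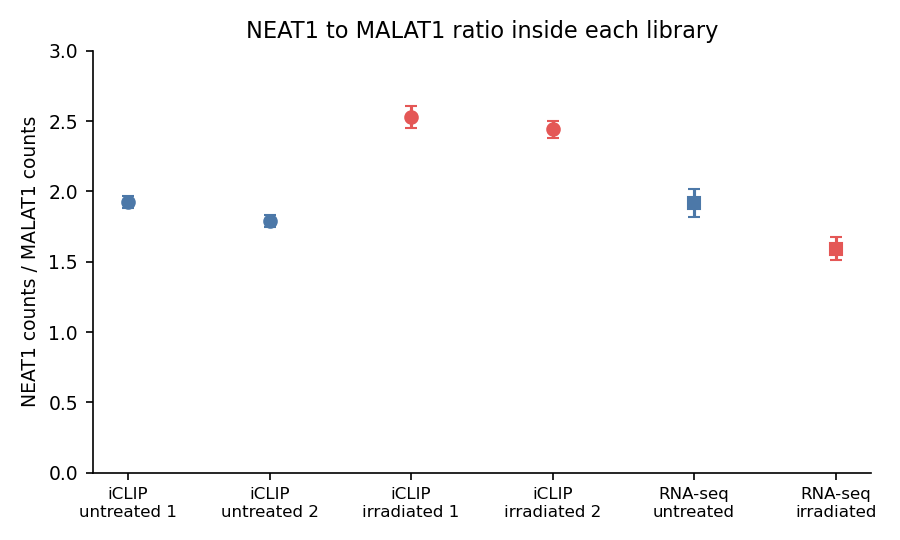
NEAT1 counts divided by MALAT1 counts in each of the 6 libraries, with 95% counting intervals (circles iCLIP, squares RNA-seq, blue untreated, red irradiated). The untreated values lie between 1.79 and 1.93, the irradiated iCLIP values at 2.53 and 2.44, and the irradiated RNA-seq value at 1.59.

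The RNA-seq comparison rests on 1 library per condition and has no replicate check. The scaled NEAT1 ratio, irradiated over untreated, was 0.872 (95% counting interval 0.835 to 0.911), and 41.2% of 14729 genes had a larger change in either direction. The MALAT1 ratio was 1.05 (0.993 to 1.12), and 74.3% of genes had a larger change. Neither passed 1.5-fold, which 6.89% of those genes did.

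Whether the change differed between the assays was tested as an interaction over all 6 libraries, with the lone RNA-seq libraries assumed to vary like the iCLIP pairs. For NEAT1 the iCLIP change exceeded the RNA-seq change by 0.62 ± 0.17 SE on the log2 scale (95% interval 0.27 to 0.96). This did not pass the threshold after adjustment over 14946 genes (edgeR adjusted p = 0.534), where NEAT1 ranked 31 by its unadjusted p of 0.00124. For MALAT1 the difference was -0.07 ± 0.18 SE (-0.43 to 0.29, edgeR adjusted p = 1.00). In the same fit 3 genes were called (0.0201%), GRIN2C, FDXR and INKA2, which are named here after their values were seen, and 795 had an unadjusted p under 0.05. The default filter also passes genes counted in RNA-seq alone, which cannot show such a difference but enter the adjustment over 14946 genes. With at least 20 counts in every library 4057 genes were tested. There the NEAT1 difference was 0.60 ± 0.18 SE (edgeR adjusted p = 0.267). The rise of NEAT1 in iCLIP is therefore not shown to differ from its change in RNA-seq.

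Dividing each gene's iCLIP share by its RNA-seq share gave a measure of how far it was over-represented in the TIRR libraries. The assays differ in genotype and library protocol, so no test was made, and the sources used here do not say whether RNA-seq selected poly(A) RNA. Both RNAs were near the top of the list. In untreated cells the NEAT1 share was 81.3-fold (78.7 to 84.0) and 74.6-fold (72.2 to 77.1) higher in the first and second iCLIP library than in RNA-seq, which together put it at rank 16 of 10405 genes. For MALAT1 the values were 80.9-fold and 79.9-fold, a mean of 80.4-fold at rank 14. The pair was thus alike in untreated cells, with log2 values of 6.28 and 6.33 and an SD between replicates of 0.09 for NEAT1. The median was 0.02 over all genes compared, 0.03 over 8667 protein-coding genes and 0.30 over 669 long noncoding RNAs, among which MALAT1 was at rank 5 and NEAT1 at rank 6.

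In irradiated cells the pair separated on this measure. NEAT1 was 116-fold and 114-fold higher in the iCLIP libraries than in RNA-seq, a mean of 115-fold. This was rank 5 of the 9983 genes and rank 1 of the 623 long noncoding RNAs that met the same minimum. LINC-PINT, with 143 and 258 irradiated iCLIP counts against 5 in RNA-seq, was again not ranked. MALAT1 was 73.1-fold and 74.4-fold higher, a mean of 73.8-fold at rank 18 and rank 4 among long noncoding RNAs. From untreated to irradiated cells the log2 ratio of NEAT1 went up by 0.57, and 11.3% of 9569 genes had a larger change. That of MALAT1 changed by -0.12, and the median gene by -0.07. Scaling all 6 libraries together by TMM lowered the mean folds to 46.9 and 48.3 in untreated cells and to 72.0 and 46.0 in irradiated cells, for NEAT1 and MALAT1 in that order.

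**Figure D4:**
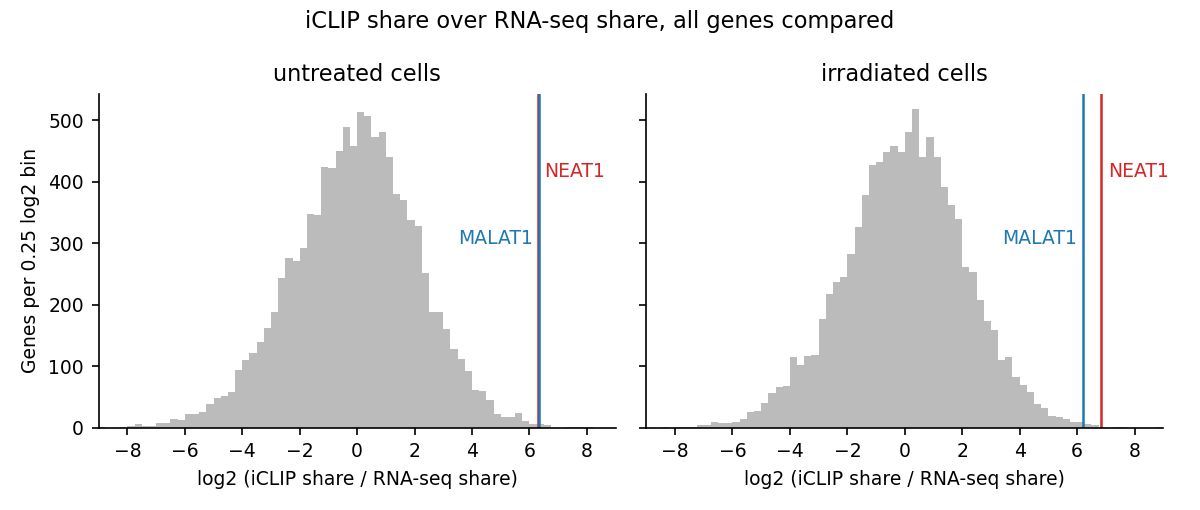
Distribution over genes of the log2 ratio of iCLIP share to RNA-seq share in untreated (left, 10405 genes) and irradiated cells (right, 9983 genes), with NEAT1 (red) and MALAT1 (blue) as vertical lines. In untreated cells the lines coincide near 6.3, and in irradiated cells NEAT1 lies at 6.85 and MALAT1 at 6.20, all in the far right tail.

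The gene tables of the assays do not list the same genes. Of 3090 genes with at least 1000 untreated RNA-seq counts, 642 were listed in none of the iCLIP tables, COL1A1 and SPARC among them, and these held 19.4% of the untreated and 19.8% of the irradiated RNA-seq gene counts. Genes listed only in iCLIP held 4.02% to 4.42% of iCLIP gene counts. Shares in each assay are therefore relative to different gene sets.

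The positions of the genes (assembly GRCh38.p14) put NEAT1 at 65422798 to 65445540 and MALAT1 at 65497738 to 65506516 on chromosome 11, with 52197 bases between them. Within 100000 bases of the pair lie 22 other RefSeq genes, of which 15 were listed. The members held 99.2% and 99.0% of the iCLIP counts of the whole neighbourhood in untreated and 99.4% in each irradiated library. In RNA-seq they held 45.3% and 46.9%. The other genes summed to 273, 319, 124 and 198 iCLIP counts (untreated, then irradiated) but to 7915 and 7023 RNA-seq counts. Nearly all iCLIP counts of the neighbourhood were thus on NEAT1 and MALAT1, while in RNA-seq the other genes together held more counts than the pair.

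Of these neighbours 4 could be tested and none was called by edgeR, with 1 at an unadjusted p under 0.05. DESeq2 called neither FRMD8 nor LTBP3 and gave no adjusted p for DPF2 and MAP3K11. As 3.50% of all genes tested were called by edgeR, a count of 0 among 4 is near the background. LTBP3, which encodes a binding protein of latent TGF-beta, had the most counts, 144 and 172 in untreated and 60 and 100 in irradiated libraries (log2 fold change -0.34 ± 0.17 SE, edgeR adjusted p = 0.355). Its untreated level was 7.76 counts per kb, against 915 for NEAT1 and 1252 for MALAT1. FRMD8, on the other side of NEAT1, had 50 and 58, then 26 and 45 counts (0.03, adjusted p = 0.977). MAP3K11, a kinase of the JNK pathway, had 36 and 36, then 11 and 18 (-0.67, adjusted p = 0.321), and DPF2, a subunit of a BAF chromatin remodelling complex, 15 and 19, then 17 and 16 (0.61, adjusted p = 0.521). Fewer than 20 counts in any iCLIP library were found for SLC25A45, FAM89B and ZNRD2. FAUP4, a transcribed pseudogene between the members, and EHBP1L1 had no line in the iCLIP tables. In RNA-seq FAUP4 went from 145 to 80 counts, a factor of 0.546 (0.410 to 0.722).

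Some genes overlap the members. MIR612, a microRNA gene inside NEAT1, had 1 count in each irradiated iCLIP library and 0 in the other 4 libraries. TALAM1, transcribed antisense over MALAT1, and MASCRNA, the small RNA cut from the MALAT1 3′ end, had no line in the tables. The intergenic line has a length of 4469334271 bases in iCLIP and 4291815975 in RNA-seq. On 1 strand the annotated chromosomes reach 3086990947 bases, so these lengths cover both strands. The sources used here do not say how reads were assigned to a strand. Whether the MALAT1 counts include reads of TALAM1 was not tested. The gene tables also do not separate the NEAT1 isoforms, so every NEAT1 value is a sum over both.

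Paraspeckle proteins are the partners of NEAT1. Of 25 genes for such proteins 21 were tested, and none was called by edgeR or DESeq2, with 1 at an unadjusted p under 0.05. With 3.50% of all genes tested called, a count of 0 among so few is near the background. The median log2 fold change was 0.03 (range -0.39 to 0.57), against 0.00157 over all genes tested. A lower value than that of NEAT1 was found for 20 of 21, but only 13.98% of all genes tested had a higher one. TAF15, HNRNPH3, HNRNPH1 and HNRNPA1, which encode RNA-binding proteins, had the most counts, with log2 fold changes of -0.06, 0.09, 0.11 and 0.20 (edgeR adjusted p = 0.900, 0.864, 0.792 and 0.615). None of the 25 passed 1.5-fold in RNA-seq, where their median log2 ratio was -0.03. Their iCLIP share relative to RNA-seq in untreated cells had a median log2 of -0.94 over 22 genes and a maximum of 2.69, below both NEAT1 and MALAT1.

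Of 25 genes for nuclear speckle proteins 17 were tested and 1 rose, where 2.43% of all genes tested did, so a single call is no result about the group. The median log2 fold change was 0.08 (range -0.58 to 0.58). SRSF5, a splicing factor of the SR family, had 487 and 446 counts in untreated and 305 and 598 in irradiated libraries, which was 609, 544, 784 and 915 CPM. It rose by 1.48-fold (log2 fold change 0.56 ± 0.13 SE, edgeR adjusted p = 0.0200). The SRSF5 call is lost in DESeq2 (adjusted p = 0.109), with the replicate block (0.113), and without the first untreated (0.0942), the second untreated (0.306) or the second irradiated library (0.0513). SRRM2, which forms the core of speckles, had a log2 fold change of 0.19, U2AF2 0.08 and ACIN1 -0.09 (edgeR adjusted p = 0.580, 0.894 and 0.894). The median log2 ratio of iCLIP to RNA-seq share was -0.98 over 18 of these genes, with SRSF5 the highest at 1.82.

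The enzymes and factors that make the 3′ ends of the pair had few iCLIP counts, and 6 of 16 such genes were tested, of which 15 had a line in the tables. None was called by edgeR or DESeq2, with 1 at an unadjusted p under 0.05, and the median log2 fold change was 0.13 (range -0.26 to 0.46). A count of 0 among 6 is near the background, as edgeR called 3.50% of all genes tested. CPSF7, a cleavage factor subunit, had 116 and 133, then 80 and 141 counts (0.46, edgeR adjusted p = 0.158). METTL16, which binds the MALAT1 triple helix, had 49 and 36, then 25 and 41 counts (0.27, adjusted p = 0.703). CPSF6 and RPP14, an RNase P subunit, had log2 fold changes of -0.26 and 0.03 (edgeR adjusted p = 0.758 and 0.981).

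Among 24 other long noncoding RNAs 16 were tested, and 1 rose, against 2.43% of all genes tested, which again says nothing about the group. The median log2 fold change was 0.03 (range -0.54 to 0.73), and 14 of 16 were below NEAT1. This is near the background, as only 13.98% of all genes tested were above NEAT1. PVT1, which lies beside MYC, had 1970 and 2161 counts in untreated and 1618 and 2793 in irradiated libraries and rose by 1.65-fold (log2 fold change 0.73 ± 0.10 SE, edgeR adjusted p = 0.000312). Unlike NEAT1, PVT1 was also higher in irradiated RNA-seq, with 376 and 606 counts (a factor of 1.59, 1.40 to 1.82). Its iCLIP share was 90.4-fold and 88.5-fold its RNA-seq share in untreated and irradiated cells. In untreated cells PVT1 alone was above both NEAT1 and MALAT1, of the 13 listed RNAs that could be ranked, with at least 50 RNA-seq counts. MIAT, a nuclear RNA that binds splicing factors, stood at 23.7-fold and FTX, from the X inactivation centre, at 17.9-fold in untreated cells, with log2 fold changes in iCLIP of -0.21 and 0.01 (edgeR adjusted p = 0.487 and 0.985). LINC-PINT had -0.15 (edgeR adjusted p = 0.711). It was not ranked by share, as it had only 13 and 5 RNA-seq counts. In untreated iCLIP it had 368 and 317 counts, a mean of 0.0433% of gene counts.

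The transcripts of TIRR itself and of its partner were sparse beside both RNAs. NUDT16L1 had 25 and 32, then 19 and 42 iCLIP counts (log2 fold change 0.72, edgeR adjusted p = 0.213). TP53BP1, which encodes 53BP1, had 91 and 94, then 64 and 99 (0.46, adjusted p = 0.213).

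The genes whose profiles over the 6 libraries were most like each member were ranked by Euclidean distance between log2 shares, centred on each gene's mean, among 4862 other genes. Most of this distance is the contrast between iCLIP and RNA-seq, which the 6 points share. For NEAT1 the nearest genes with an approved symbol were GNAS-AS1 (0.433), LINC01876 (0.508), SPACA6 (0.541), MALAT1 (0.583) and PTPRN2 (0.669), against a median distance of 6.32. PTPRN2, a receptor-type phosphatase gene, was the only one of these 5 that rose in iCLIP (log2 fold change 0.62, edgeR adjusted p = 0.0125), a call lost with the replicate block (0.101) and without the first untreated library (0.193). For MALAT1 they were LINC01876 (0.183), EPIC1 (0.196), IMMP2L (0.314), LINC02109 (0.321) and MAGI2 (0.430), against a median of 5.96, and NEAT1 was at rank 15. MALAT1 was thus closer to NEAT1 by rank (5) than NEAT1 was to MALAT1. LINC01876 was in both sets, and none of the 5 nearest to MALAT1 was called in iCLIP. The distance uses the same iCLIP libraries as the edgeR test, so calls or their lack among the nearest genes are no separate result. Over all genes tested 3.50% were called.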

How the data were processed

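The authors deposited 1 table per library with whole-number cDNA counts per gene, unscaled, each gene's length, and each gene's percent of all cDNA, per the file headers. The build is hg38 and kallisto 0.44.0 is named for RNA-seq, per the submitters' processing notes. Not given in the sources used here are the aligner, duplicate removal, annotation release, use of strand and how kallisto relates to the RNA-seq tables. The line for intergenic counts (30.6% to 31.3% of iCLIP and 44.4% of RNA-seq counts) stayed out of library sizes and tests. Gene IDs matched the name table for 99.94% to 99.96% (iCLIP) and 99.75% (RNA-seq) of lines, and positions came from RefSeq.

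The main test was edgeR 4.0.16 (quasi-likelihood F test, two-sided, TMM, default low-count filter, Benjamini-Hochberg over all tested genes, threshold 0.05) in R 4.3.3, tested on simulated data. The alternative tool was DESeq2 1.42.0. It gave an adjusted p for 4398 of the 9230 genes in iCLIP, and a gene without one was counted as not called. The other alternatives were scaling, low-count filters, a replicate block, leaving out mitochondrial genes, and leaving out each library. Shares have Clopper-Pearson 95% intervals, and ratios of counts exact conditional ones. iCLIP over RNA-seq shares (Python 3.11.15, pandas 2.3.3, numpy 2.4.6, scipy 1.17.1; figures by matplotlib 3.10.9) were taken for genes listed in both iCLIP libraries of a condition and holding 50 or more RNA-seq counts. RNA-seq ratios needed a sum of 100 counts over its libraries, and likeness a sum of 100 in each assay.

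The text names the members, their neighbours with at least 20 counts in an assay, up to 4 members of each of 4 lists with the most iCLIP counts plus those called, NUDT16L1, TP53BP1, and the 5 genes most like each member. An item that meets this rule is not reported here. The members, lists and rule were chosen with earlier results of these data known.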

Additional observations from a re-analysis of the deposited data

How the results depend on the processing

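The NEAT1 rise in iCLIP kept its direction under every alternative run, with log2 fold changes of 0.38 to 0.51, but lost the call in DESeq2 (0.45, adjusted p = 0.0860) and with the replicate number as a block (0.45, edgeR adjusted p = 0.252). Leaving out each library gave 0.38 to 0.51 (edgeR adjusted p = 2.49e-06 to 0.00366); each such fit leaves 1 library in a group, which is assumed to vary like the other pair, so these p-values are no support for the call. The MALAT1 change had the opposite sign with library totals (-0.036), upper quartiles (-0.0037), no low-count filter (-0.0053) and a minimum of 20 counts (-0.0074), and lay at 0.01 to 0.04 without each library in turn. No MALAT1 alternative was called. An edgeR fit of 718 long noncoding RNA genes alone, chosen after seeing the data, gave 0.47 for NEAT1 (adjusted p = 1.12e-05) and 0.06 for MALAT1 (0.671). Genes called in iCLIP numbered 323, against 121 in DESeq2, 190 with the block, and 186 (without the first untreated library) to 421 with libraries left out. Rises made up 69.4% of the calls, 58.2% with library totals, 78.9% with the block and 87.6% in DESeq2; no scaling moved the median of all genes by more than 0.1 on the log2 scale. The pairing of the replicate numbers is not explained by the labels, and same-numbered libraries did not deviate together (correlation -0.0935, 2 pairs). The block left the log2 change of the NEAT1 to MALAT1 ratio at 0.42, and leaving out libraries gave 0.37 to 0.47. The difference of the NEAT1 change between assays was 0.56 to 0.69 under its alternatives, none past the threshold (adjusted p = 0.176 to 1.00).

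The log2 ratio of iCLIP to RNA-seq share, given for NEAT1 and MALAT1 in untreated and then in irradiated cells, was 6.60, 6.65, 7.16 and 6.51 with intergenic counts in the totals. It was 5.55, 5.60, 6.17 and 5.52 with TMM over all 6 libraries. With only genes listed in both assays, chosen after seeing the data, it was 6.03, 6.08, 6.59 and 5.95. Leaving out mitochondrial genes gave 6.22, 6.26, 6.80 and 6.16. Depth limits the neighbours and 3′ end genes, most of which had too few iCLIP counts to test, and 1 RNA-seq library per condition leaves its ratios without a replicate check.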

Other observations

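Among the 50 genes with the most untreated iCLIP counts, 8 rose and 6 fell by the edgeR test at an adjusted p under 0.05, where 3.50% of all genes tested were called; the standard errors of these 50 genes were smaller, with a median of 0.12 against 0.29 over all genes tested. Their log2 fold changes ran from -0.94 to 0.83 with a median of 0.06, and NEAT1 ranked eighth and MALAT1 at 29 by that value.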
